A study of Mus musculus with 12 samples.

Results

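The subject is the difference between 2 responses of mouse CD4+ T cells to interleukin-7 (IL-7). The first is the change in naive cells held with IL-7 for 24 h relative to 0 h. The second is the change in Th9 cells grown from IL-7-treated naive cells relative to Th9 cells grown without that treatment. For each gene the Th9 change was subtracted from the naive change. A positive difference therefore means that the transcript rose more, or fell less, in the naive contrast than in the Th9 contrast. All cells came from the spleens of 2-month-old mice of strain B6.Cg-Tg(TcraTcrb)425Cbn/J, C57BL/6 animals whose T cells bear transgene-encoded receptor chains. The groups were CD4 IL7 24h (n = 2 arrays), CD4 IL7 0h (n = 2), IL7 Th9 (n = 3; naive cells given IL-7 for 48 h and then Th9 culture for 3 days) and Th9 (n = 3; Th9 culture for 3 days). Whether the Th9 control cells were also kept for 48 h without IL-7 is not stated. The naive contrast has no culture without IL-7 at 24 h, so IL-7 and time in culture cannot be told apart in it. Exposure also differed, with 24 h of IL-7 in naive cells against 48 h followed by 3 days of Th9 culture. Length of exposure, the later culture and cell type therefore cannot be told apart in the difference. Of 12 arrays, 10 were used, and the other two (6 h of IL-7) served only as an alternative and in the closing section. Members were all 9011 features with a detection p under 0.01 on at least 2 arrays of both experiments, of 45281 probes measured; 7199 carried a gene symbol and 1812 were probes without one.

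IL-7 is a survival cytokine for naive T cells. It binds a receptor made of the IL-7 receptor alpha chain and the common gamma chain, and the kinases JAK1 and JAK3 at these chains phosphorylate STAT5, which enters the nucleus and switches on genes such as Bcl2, Cish and Socs2. Th9 cells are helper cells that arise under IL-4 and TGF-beta and secrete IL-9. These cells depend on transcription factors that include IRF4, BATF and GATA3.

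Each experiment was hybridised on a BeadChip of its own, so chip and cell type cannot be told apart in levels, while an additive chip term cancels in the difference. On the Th9 chip the 3 IL7 Th9 arrays also occupied one end and the 3 Th9 arrays the other, so position and treatment cannot be told apart there. Mean signal lay between 116.1 and 245.2 and 28.3% to 34.4% of probes were detected. Arrays of one group correlated at 0.992 (24 h), 0.993 (0 h), 0.974 to 0.976 (IL7 Th9) and 0.978 to 0.982 (Th9), so the Th9 arrays were the noisier ones. Whether replicates came from separate mice or cultures is not stated, so the p-values describe the variation among these arrays, which may be technical. The array IL7 Th9 replicate 1 stood apart in sex-linked transcripts. It had an Xist signal of 792.4 and no detected Eif2s3y signal, whereas the other 9 arrays had no detected Xist and did have Eif2s3y. Results were therefore also computed without it. T cell transcripts Cd3d, Cd3e, Cd3g and Thy1 were detected on every array, while the probe for Cd5 was detected on none. Il9, the cytokine that names Th9 cells, gave 238.3 to 1100.8 in IL7 Th9 and 366.6 to 578.5 in Th9 cells (deposited signal) and was not detected in naive cells, so it was not among the features tested. The probe for Spi1, a Th9 transcription factor, was not detected on any array. Markers of B, myeloid and CD8 T cells and of pancreas summed lower at 24 h than at 0 h, without overlap. In IL7 Th9 and Th9 cells their ranges overlapped. The sums are of deposited signals before normalization, so the brightness of each array enters them. Summed B cell marker signal was 164.5 to 302.3 at 24 h against 532.1 to 635.2 at 0 h, and 635.2 to 1240.1 in IL7 Th9 against 1087.3 to 1898.6 in Th9 cells, while Ms4a1, Cd22, Blnk and Pax5 were detected nowhere. The myeloid sums were 1475.8 to 1782.8 at 24 h against 2202.8 to 2712.8 at 0 h. They were 1068 to 1717.3 in IL7 Th9 against 1304.5 to 2974.9 in Th9 cells, with Itgam, Itgax and Cd14 not detected. Markers of CD8 T cells, of which only Cd8b1 was detected, summed to 932.8 to 1469.5 at 24 h against 1795.3 to 2821.4 at 0 h. Their sums were 171.6 to 369.8 in IL7 Th9 against 357.8 to 484.8 in Th9 cells, with Cd8a and Crtam not detected. The natural killer sums overlapped (2906.6 to 4404 at 24 h against 3770.2 to 5601.8 at 0 h, and 456.9 to 809.6 in IL7 Th9 against 606.6 to 954.3 in Th9 cells), with Ncr1 not detected. Pancreas markers summed to 42.8 to 67.6 at 24 h against 180.3 to 1238.7 at 0 h. Their part in the results was not tested, and fewer cells of a type cannot be told apart from less RNA per cell.

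More features were called in naive cells than in Th9 cells. With limma's moderated test and Benjamini-Hochberg adjustment over 9011 features (called at an adjusted p under 0.05), 363 features rose and 383 fell in naive cells (4.03% and 4.25% of those tested). In Th9 cells 26 rose and 29 fell (0.289% and 0.322%). At an unadjusted p under 0.05 the counts were 1894 in naive and 1159 in Th9 cells. The naive count of 746 was 275 when 0h replicate 1 was dropped, 326 for 0h replicate 2, 302 for 24h replicate 1 and 316 for 24h replicate 2. The IL-7 effects differed for 501 features. The difference was above 0 for 261 (2.9%) and below 0 for 240 (2.66%). The median absolute effect was 0.22 on the log2 scale in naive cells and 0.14 in Th9 cells, with median standard errors of 0.19 and 0.15. Of the 746 features called in naive cells, 408 also had a called difference of the same sign, and for the other 338 the difference was not called. Of the 55 called in Th9 cells, 26 had a called difference of the opposite sign and 26 had none called. For 71 features the difference was called although neither effect was. The Th9 count depended on the arrays and on how the spread was estimated. It was 38 without IL7 Th9 replicate 1, 6 without Th9 replicate 2, 9 without Th9 replicate 3, 30 without Th9 replicate 1, 84 without IL7 Th9 replicate 2, 111 without IL7 Th9 replicate 3 and 19 to 21 without any 1 naive array, and 5 when each experiment had its own variance. The count of differences was 507 without IL7 Th9 replicate 1, but it lay between 198 (leaving out 24h replicate 1) and 211 (leaving out 0h replicate 2) for the 4 naive arrays, with 202 for 0h replicate 1 and 203 for 24h replicate 2. It was 341 when Th9 replicate 2 was left out. In all, 151 of the 501 were called whichever array was left out.

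A response was counted as leaving no trace in the other cells when it and the difference were called and the 95% confidence interval of the other effect lay within 1.5-fold either way (0.585 on the log2 scale). By this rule 116 features rose in naive cells without a trace in Th9 cells (1.29%) and 110 fell (1.22%). In the reverse direction, 5 features rose in Th9 cells without a trace in naive cells (0.0555%) and 4 fell (0.0444%). Another 4 were called in opposite directions (0.0444%), and 12 were called in the same direction (0.133%). With any 1 naive array dropped these last 2 counts were 0 and 2 to 4. With a Th9 array dropped they were 1 and 8 (replicate 1), 0 and 4 (replicate 2) or 1 and 5 (replicate 3), and with an IL7 Th9 array dropped 2 and 10 (replicate 1), 11 and 21 (replicate 2) or 12 and 18 (replicate 3). The interval of the Th9 effect lay within 1.5-fold for 5707 of all features (63.33%), and that of the naive effect for 3320 (36.84%), so the rule could admit fewer features in the second direction. Just inside the margin were Stat3, with a Th9 interval from 0.03 to 0.58, and Midn, with one from 0.02 to 0.58. Both intervals excluded 0, so the rule bounds the other effect at 1.5-fold and does not show that it was absent. Just outside the margin was Nln, whose interval began at -0.59. With 1 array left out, the features with a naive response and no trace numbered 207 when IL7 Th9 replicate 1 was dropped and 147 when Th9 replicate 2 was, against 226 with all 10. Dropping a naive array gave 81 (24h replicate 1), 84 (24h replicate 2), 85 (0h replicate 1) or 93 (0h replicate 2). Scaling the arrays in place of quantile normalization gave 22, of which 18 were among the 226.

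**Figure D1:**
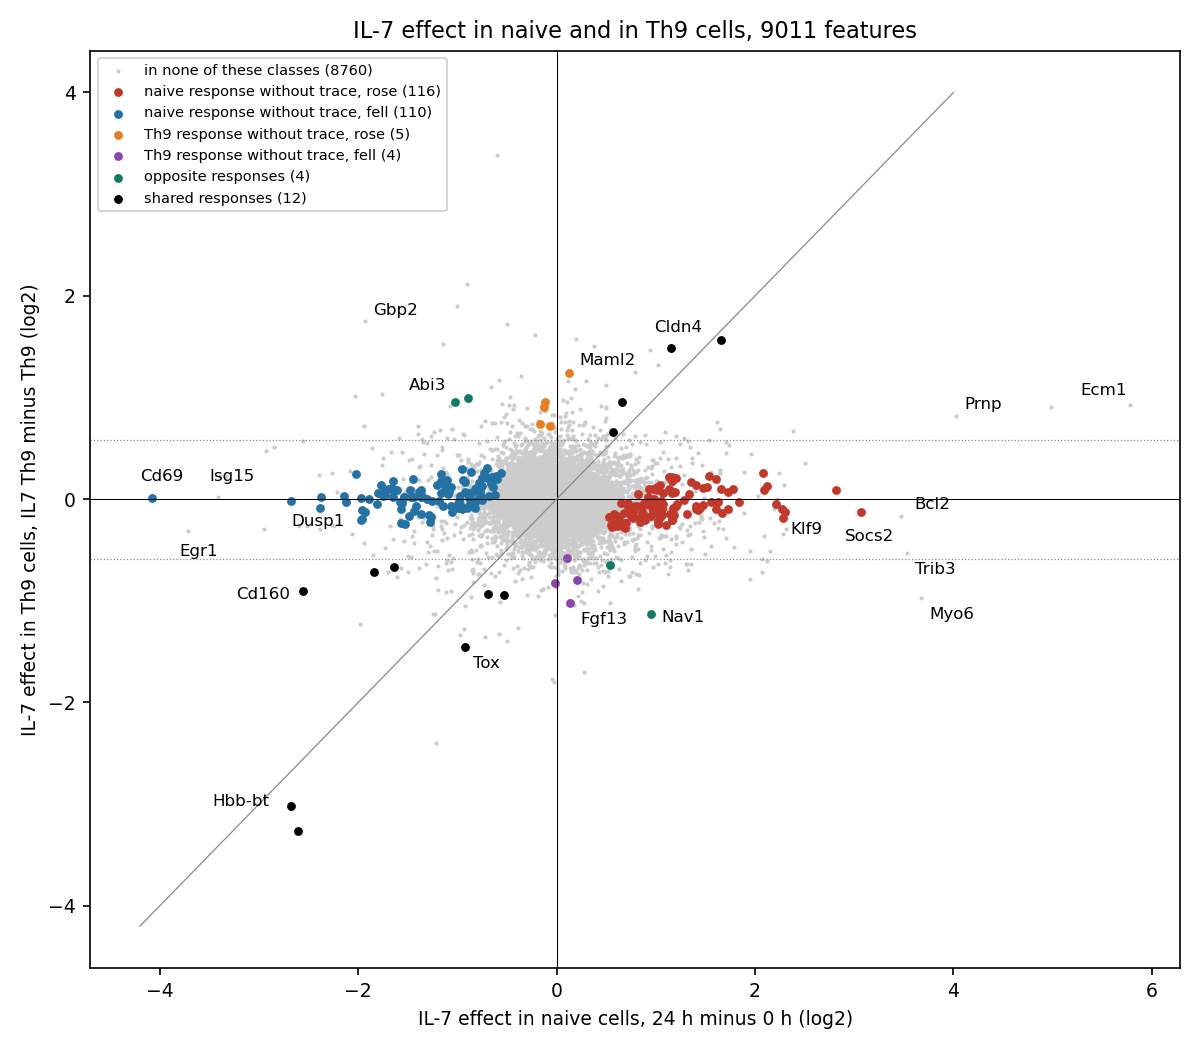
IL-7 effect (log2) in naive cells (horizontal, 24 h minus 0 h) against that in Th9 cells (vertical, IL7 Th9 minus Th9) for 9011 features, coloured by class; the dotted lines mark 1.5-fold and the grey line equal effects. The 226 features of the naive response without trace lie along the horizontal axis, and 9 of the Th9 response without trace lie along the vertical axis.

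Genes that IL-7 is known to switch on through STAT5 rose in naive cells, while the median of their Th9 effects was near 0. Of 19 tested members of a list of 20 IL-7 and STAT5 targets, 13 rose and 1 fell in naive cells, against 4.03% and 4.25% of all features. The difference was called above 0 for 8 and below 0 for 1, against 2.9% and 2.66% of all features. The rule of no trace was met by 6, while 1.29% of all features rose without trace. The median effect was 1.08 in naive cells and 0.12 in Th9 cells (log2), against -0.0033 and -0.012 over all features. No Th9 effect of the list was called by limma, 3 of the 19 had an unadjusted Th9 p under 0.05, and 0 were called with a separate variance for each experiment. Over all 9011 features limma called 55 Th9 effects, 1159 had an unadjusted Th9 p under 0.05, and separate variances called 5. With so few calls, 0 in a short list does not show that its members did not respond, here and in the lists below. Leaving out 1 array left between 4 and 9 members with a called difference above 0 (9 without IL7 Th9 replicate 1, and 4 without one of the naive arrays).

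Socs2, an inhibitor of cytokine signalling made in response to STAT5, had log2 intensities of 7.99 and 7.59 at 24 h against 4.71 and 4.72 at 0 h, and of 11.41, 11.18 and 11.48 in IL7 Th9 against 11.45, 11.42 and 11.58 in Th9 cells. The naive groups did not overlap, and the Th9 groups did. Socs2 was not detected at 0 h, so the naive change is given as at least 7.30-fold (adjusted p = 1.4e-05). The Th9 effect was -0.13 ± 0.14 (SE, log2). Cish, a related inhibitor, had 9.84 and 10.27 at 24 h against 8.50 and 8.50 at 0 h, and 11.83, 12.12 and 12.05 in IL7 Th9 against 11.90, 12.13 and 12.06 in Th9 cells. The difference of effects was 1.59 ± 0.23 (limma, adjusted p = 0.003). In both genes the Th9 arrays, with or without earlier IL-7, read higher than the naive arrays at 24 h.

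Bcl2, which protects lymphocytes from apoptosis, behaved otherwise in level. It had 11.36 and 11.58 at 24 h against 8.18 and 7.81 at 0 h, and 9.31, 9.47 and 8.63 in IL7 Th9 against 9.44, 9.30 and 9.16 in Th9 cells. The naive change was 11.1-fold, the Th9 effect was -0.16 ± 0.21, and the difference was 3.64 ± 0.33 (limma, adjusted p = 0.00032). The Th9 arrays stood between the 2 naive groups. Of 9 tested BCL2 family members 1 rose and 2 fell in naive cells, against 4.03% and 4.25% of all features. Bcl2 alone had a called difference, against 2.9% of all features called above 0 and 2.66% below 0. The pro-apoptotic Bcl2l11 had effects of 1.53 in naive and 0.59 in Th9 cells and was not called in either.

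Pim1, a survival kinase, had 7.69 and 7.62 at 24 h against 5.35 and 5.40 at 0 h, and 6.69, 6.06 and 5.90 in IL7 Th9 against 6.79, 6.78 and 6.12 in Th9 cells. Its difference was 2.62 ± 0.36 (limma, adjusted p = 0.0025), but its Th9 interval, from -0.85 to 0.16, was too wide for the rule of no trace. Lta, the cytokine lymphotoxin alpha, had 9.11 and 9.21 at 24 h against 7.01 and 7.07 at 0 h, and 10.14, 10.50 and 10.82 in IL7 Th9 against 10.30, 10.33 and 10.46 in Th9 cells. Its difference was 2.00 ± 0.25 (limma, adjusted p = 0.0016). Il2ra, the alpha chain of the IL-2 receptor, Myc, a growth regulator, and Tnfrsf4, the costimulatory receptor OX40, had differences of 0.99, 1.31 and 1.11. The difference of Myc was not called without 0h replicate 1 or either 24h array, that of Il2ra without 24h replicate 1 or 0h replicate 2, and that of Tnfrsf4 without 0h replicate 1 or 24h replicate 2. Bcl6, a repressor that STAT5 is known to oppose, fell in naive cells by 1.59, and its Th9 effect was 0.60 ± 0.21, which was not called; the difference was -2.19 ± 0.33 (limma, adjusted p = 0.0038). Il7r, the IL-7 receptor alpha chain itself, had 11.03 and 11.13 at 24 h against 10.60 and 10.64 at 0 h, and 7.44, 8.60 and 7.26 in IL7 Th9 against 7.79, 7.62 and 7.47 in Th9 cells. Neither its effects nor its difference (0.32 ± 0.45) were called.

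**Figure D2:**
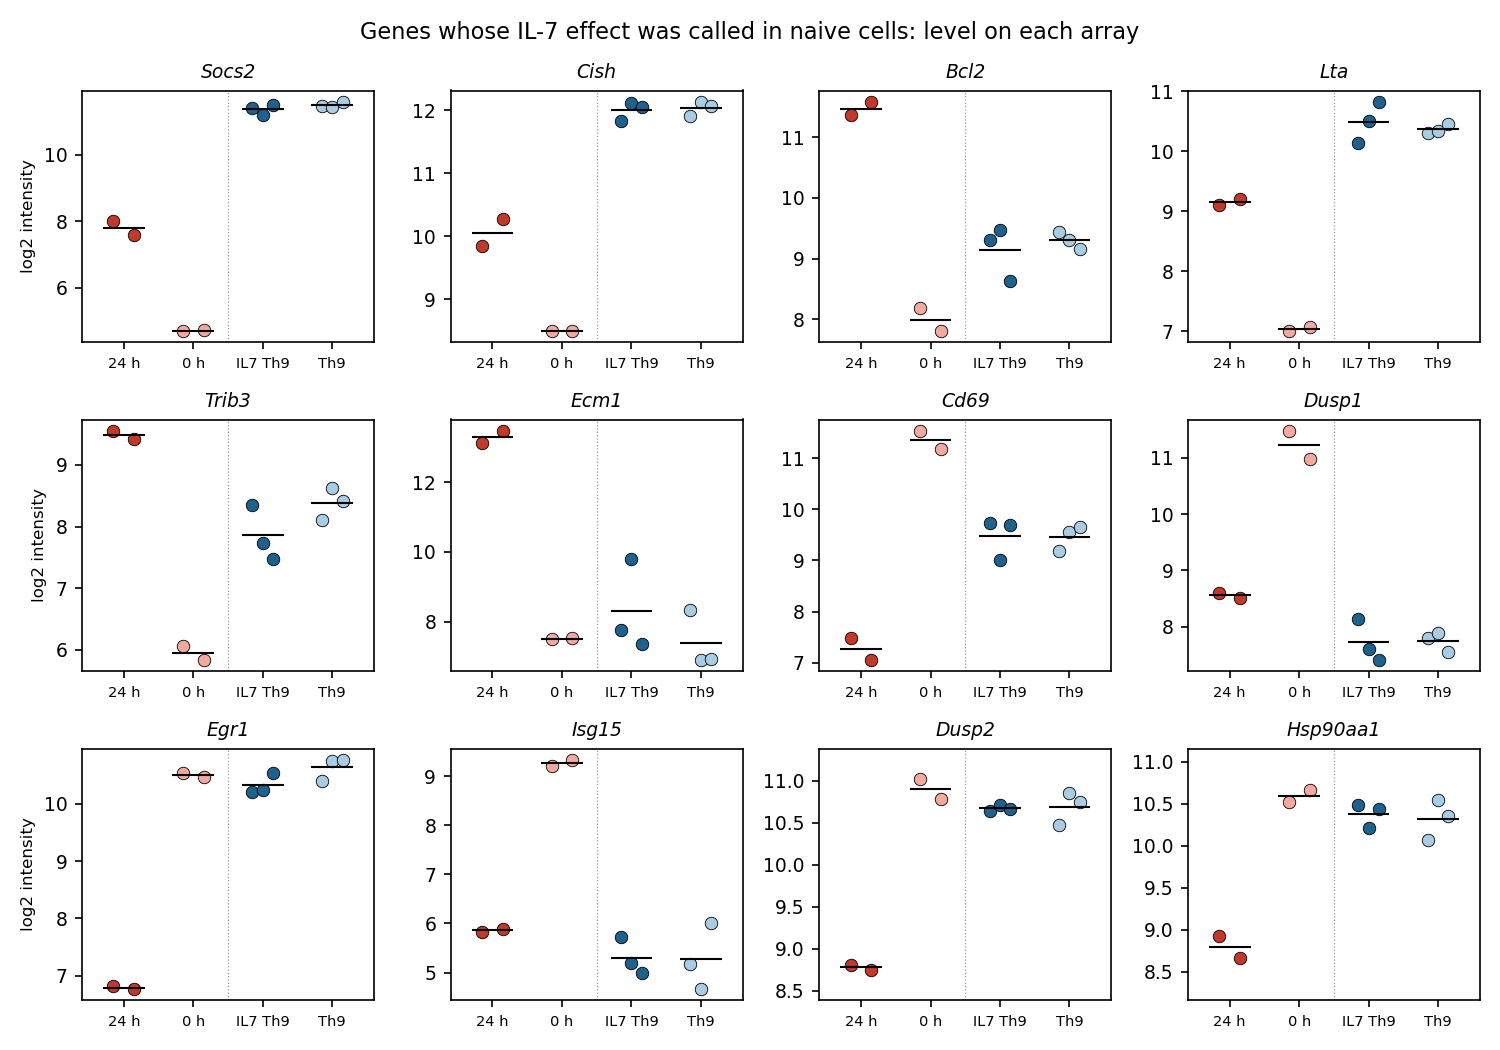
Log2 intensity on each array (points) with group means (bars) for 12 genes whose naive effect was called; each panel has its own vertical scale and the dotted line separates the naive from the Th9 chip. The 2 naive groups are apart in every panel, which the choice of the genes by their naive call made likely. In Socs2 the arrays read 7.99 and 7.59 at 24 h against 4.71 and 4.72 at 0 h.

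Promoter windows are shown for genes that moved together, from RefSeq (GRCm38.p6), 5′ to 3′ along the gene; 5980 tested genes had a promoter of 250 bases before to 50 after the start. Capitals mark matches on either strand to the motif searched, and a match is a description of letters only. For STAT5 the letters TTCNNNGAA were searched. They occurred in 7.06% of all these promoters, in 8.7% of the 69 of the naive genes that rose without trace, and in 9.41% of the 85 of those that fell, so the classes lay near the background. Among 15 promoters of the STAT5 target list 4 had a match, in Bcl6, Cish, Lta and Socs3. The window of Cish (chr9:107296623-107296708, + strand) held 2 matches 11 bases apart, and that of Lta (chr17:35205322-35205539, - strand) held 2.
Cish: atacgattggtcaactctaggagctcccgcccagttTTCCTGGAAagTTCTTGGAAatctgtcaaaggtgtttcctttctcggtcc
Lta: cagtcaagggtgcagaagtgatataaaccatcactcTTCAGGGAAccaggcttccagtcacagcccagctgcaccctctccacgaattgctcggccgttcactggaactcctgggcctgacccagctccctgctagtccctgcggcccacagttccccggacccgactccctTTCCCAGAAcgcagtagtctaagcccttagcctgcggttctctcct

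Among genes with a symbol, the differences of Ecm1, Myo6 and Trib3, all outside the STAT5 list, were larger than that of Bcl2. Ecm1, a secreted matrix protein, had log2 intensities of 13.11 and 13.47 at 24 h against 7.50 and 7.52 at 0 h, and 7.77, 9.81 and 7.37 in IL7 Th9 against 8.33, 6.91 and 6.93 in Th9 cells. Its naive change was 55.0-fold, and IL7 Th9 replicate 2 and Th9 replicate 1 stood above their groups. The difference was 4.86 ± 0.89 (limma, adjusted p = 0.011), which was not called without either 0h array or without 24h replicate 2. Myo6, an actin motor, had 11.93 and 11.95 at 24 h against 8.44 and 8.09 at 0 h, and 6.91, 8.96 and 6.76 in IL7 Th9 against 8.60, 8.57 and 8.40 in Th9 cells. IL7 Th9 replicate 2 was again the high one of its group. Prnp, the prion protein gene, had 9.65 and 9.64 at 24 h against 5.88 and 5.36 at 0 h, and 11.03, 11 and 9.95 in IL7 Th9 against 10.24, 9.77 and 9.51 in Th9 cells. The Th9 groups of Prnp overlapped, and its Th9 effect of 0.82 ± 0.29 was not called.

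Trib3, a pseudokinase of the amino acid and stress response, had 9.55 and 9.42 at 24 h against 6.07 and 5.84 at 0 h, and 8.35, 7.74 and 7.48 in IL7 Th9 against 8.10, 8.63 and 8.42 in Th9 cells. The difference was 4.06 ± 0.34 (limma, adjusted p = 0.00029). Other genes of the amino acid response moved less than Trib3. Of 11 tested members 2 rose and 2 fell in naive cells, against 4.03% and 4.25% of all features. The median was -0.27 in naive and -0.10 in Th9 cells. The difference was called above 0 for Trib3 alone and below 0 for Ddit4, an inhibitor of mTOR (-2.20 ± 0.48). Shares of all features called above and below 0 were 2.9% and 2.66%. The difference of Ddit4 was not called without any 1 of the naive arrays. Atf4, the factor that heads this response, had effects of -0.45 and 0.03, neither called. The promoter of Trib3 (chr2:152344011-152344082, - strand) held the amino acid response letters TGATGNAA on the other strand, 1 of 9 in this list and 2.06% of all promoters.
Trib3: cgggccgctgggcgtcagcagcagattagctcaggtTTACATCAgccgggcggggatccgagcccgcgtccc

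Among the genes that rose without trace, Klf9, a glucocorticoid-responsive transcription factor, had 8.85 and 8.71 at 24 h against 6.64 and 6.39 at 0 h, and 8.58, 8.06 and 8.15 in IL7 Th9 against 8.06, 8.61 and 8.40 in Th9 cells. Its difference was 2.37 ± 0.28 (limma, adjusted p = 0.0012). Capg, an actin-capping protein, and Plp2, a membrane protein, had differences of 2.26 ± 0.20 and 1.99 ± 0.29. Acvr2b, an activin receptor, had one of 1.86 ± 0.23, Thada of 1.82 ± 0.31 and Heatr5a of 1.81 ± 0.25, and leaving out any 1 array kept the calls of all of these. The difference over the 116 features ranged from 0.69 to 3.20, with median effects of 1.03 in naive and -0.09 in Th9 cells. Of them 90 had a symbol. The 2 naive groups did not overlap for any of the 116, which their choice by a naive call on the same arrays made likely.

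Genes known from regulatory T cells formed the list with the highest median difference. Of 13 tested members 7 rose and 1 fell in naive cells, and the difference was called above 0 for 7 and below 0 for 1, with a median of 1.11 (3 to 8 called above 0 when 1 array was left out, and 7 without IL7 Th9 replicate 1). Over all features 4.03% rose and 4.25% fell in naive cells, and differences were called above 0 for 2.9% and below 0 for 2.66%. Il2ra, Tnfrsf4, Tnfrsf18 and Ctla4 of the regulatory T cell list also belong to the STAT5 or activation lists. Tnfrsf18, the receptor GITR, had 10.82 and 10.95 at 24 h against 8.38 and 8.77 at 0 h, and 12.42, 12.21 and 11.75 in IL7 Th9 against 12.71, 12.24 and 12.32 in Th9 cells (difference 2.60 ± 0.31). Ctla4, an inhibitory receptor, had 8.12 and 7.98 at 24 h against 6.23 and 6.10 at 0 h, and 11.51, 11.20 and 10.52 in IL7 Th9 against 11.41, 11.38 and 10.83 in Th9 cells (difference 2.02 ± 0.38, not called without any 1 naive array). Foxp3, the factor that defines these cells, had effects of -0.03 and -0.16, neither called. Itgae, an integrin chain, went the other way. It fell by 1.24 in naive cells, and its Th9 effect of 0.66 was not called. Nrp1, a receptor, fell in Th9 cells by 0.95 while its naive effect of 0.21 was not called. The difference of Nrp1 was not called without any 1 naive array, Th9 replicate 2 or Th9 replicate 3. That of Itgae was not called without 0h replicate 1, 24h replicate 2 or Th9 replicate 2. Ecm1, described above, had the highest naive effect of this list (5.78).

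Cholesterol synthesis genes had effects of opposite sign in the 2 settings. All 16 tested members had a naive effect above 0 (12 when arrays were scaled, which moved the median of all features by -0.13 in naive and -0.149 in Th9 cells) and a Th9 effect below 0, with medians of 0.44 and -0.23; over all features 4469 of 9011 naive effects were above 0 and 4716 Th9 effects were below 0. In naive cells 5 rose, against 4.03% of all features, and 5 differences were called, all above 0, against 2.9% of all features. In Th9 cells limma called 0, with 4 at an unadjusted p under 0.05 and 0 called with separate variances. Sqle, squalene epoxidase, had 8.72 and 8.76 at 24 h against 7.60 and 7.51 at 0 h, and 10.66, 10.74 and 10.83 in IL7 Th9 against 10.92, 11.07 and 10.71 in Th9 cells (difference 1.35 ± 0.19, not called when arrays were scaled, adjusted p = 0.077). Stard4, a sterol carrier, had a difference of 1.45 ± 0.25, Cyp51 of 0.89 ± 0.19, Msmo1 of 0.88 ± 0.18 and Srebf2, the transcription factor of the pathway, of 0.86 ± 0.18. Leaving out 1 array left 2 to 6 called (6 without IL7 Th9 replicate 1). The differences of Cyp51, Msmo1 and Srebf2 were not called without any 1 naive array, nor that of Cyp51 without Th9 replicate 2. Of 11 fatty acid synthesis genes, Elovl6, which elongates fatty acids (1.46 ± 0.23), and Fads1, a desaturase (0.80 ± 0.19), had called differences above 0. Scd2, another desaturase, had one below 0 (-1.15 ± 0.28). Shares of all features called above and below 0 were 2.9% and 2.66%. Fads1 and Scd2 lost their calls in most of the fits that left out an array.

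**Figure D3:**
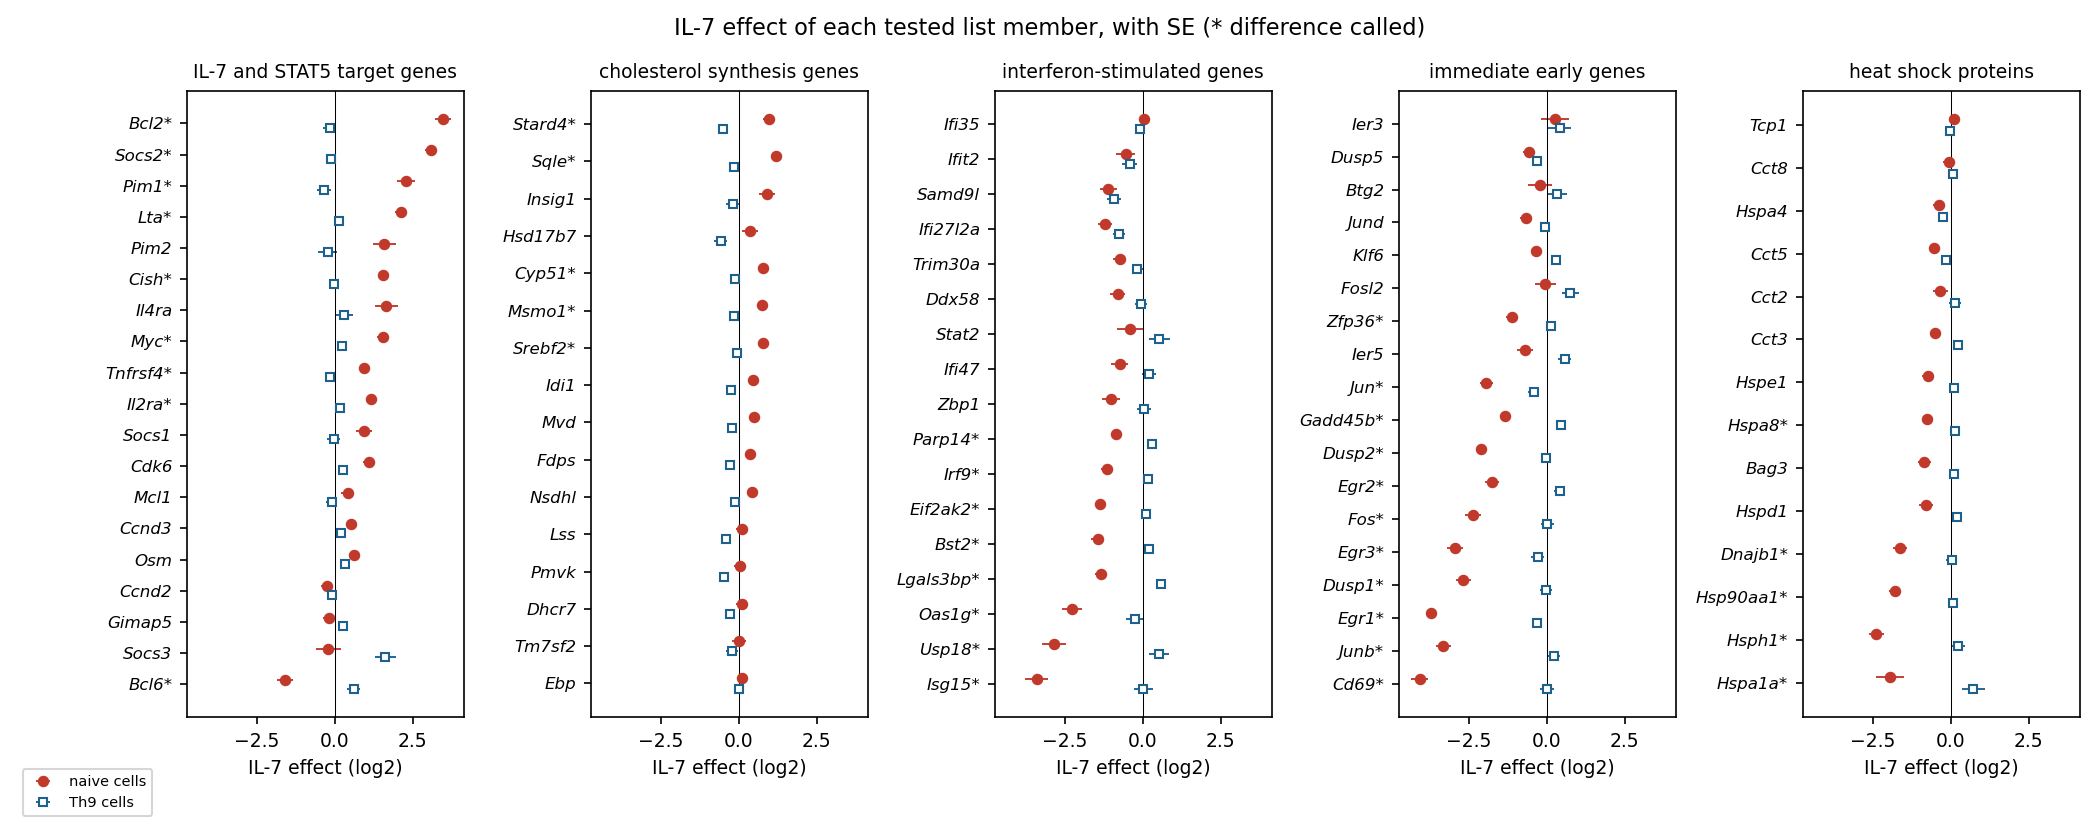
IL-7 effect (log2, points with SE) of each tested member of 5 gene lists in naive cells (filled circles) and Th9 cells (open squares); an asterisk marks a called difference. Most STAT5 targets and the cholesterol genes lie above 0 in naive cells and most members of the other 3 lists below 0. No Th9 effect of these members was called, against 55 of all 9011 features.

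The list with the lowest median difference was that of immediate early genes, which cells switch on soon after a stimulus. Of 18 tested members 11 fell in naive cells, against 4.25% of all features, and none rose. The same number of differences was called, all below 0, against 2.66% of all features. The median effect was -1.54 in naive cells and 0.07 in Th9 cells. Leaving out 1 array left 8 to 12 differences called (11 without IL7 Th9 replicate 1), and with all 12 arrays in the fit, which adds a 6 h array that stood apart (Egr1 read 11.67 on 6 h replicate 1 and 7.62 on replicate 2, and its part was not tested), the calls of Dusp1, Fos, Junb, Egr1, Egr2, Egr3, Jun and Zfp36 were lost.

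Cd69, an early activation receptor, had log2 intensities of 7.49 and 7.06 at 24 h against 11.53 and 11.17 at 0 h, and 9.73, 9.01 and 9.69 in IL7 Th9 against 9.18, 9.55 and 9.66 in Th9 cells. It fell 16.9-fold in naive cells, its Th9 effect was 0.02 ± 0.22, and its difference was -4.09 ± 0.35 (limma, adjusted p = 0.00029). Egr1, a zinc finger factor of growth signalling, had 6.81 and 6.77 at 24 h against 10.54 and 10.47 at 0 h, and 10.21, 10.25 and 10.54 in IL7 Th9 against 10.41, 10.75 and 10.77 in Th9 cells (difference -3.41 ± 0.22). The Th9 arrays thus read near the naive 0 h arrays for Egr1 and between the naive groups for Cd69. Dusp1, a phosphatase that shuts off MAP kinases, had 8.60 and 8.51 at 24 h against 11.48 and 10.98 at 0 h, and 8.14, 7.60 and 7.41 in IL7 Th9 against 7.80, 7.88 and 7.54 in Th9 cells. For Dusp1 the Th9 arrays read below both naive groups.

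Dusp2, another phosphatase of the same family, had 8.80 and 8.75 at 24 h against 11.02 and 10.78 at 0 h, and 10.64, 10.71 and 10.66 in IL7 Th9 against 10.47, 10.85 and 10.75 in Th9 cells. Its difference of -2.10 ± 0.20 (limma, adjusted p = 0.00041) was called in each of the 20 other fits. Junb and Fos, parts of the AP-1 factor, had differences of -3.55 ± 0.31 and -2.40 ± 0.33, and Jun one of -1.52 ± 0.27. Zfp36, which destabilises cytokine mRNAs, had one of -1.25 ± 0.23. The difference of Zfp36 was not called without either 24h array, without 0h replicate 2 or when arrays were scaled. That of Jun was not called without 0h replicate 1 or 24h replicate 2. Outside the list, Ppp1r15a, a phosphatase subunit of the stress response, had 6.80 and 6.64 at 24 h against 10.37 and 9.87 at 0 h, and 6.58, 6.09 and 6.36 in IL7 Th9 against 6.01, 6.25 and 6.07 in Th9 cells (difference -3.63 ± 0.26). Tnfaip3, the NF-kB inhibitor A20, had a difference of -3.41 ± 0.33, Cebpb, a transcription factor, of -2.18 ± 0.23, and Tespa1, a T cell signalling protein, of -2.29 ± 0.20. That of Cebpb was not called with all 12 arrays (adjusted p = 0.2). In the Th9 contrast limma called 0 immediate early genes, against 55 of all 9011 features, and separate variances called 0, against 5. An unadjusted p under 0.05 was found for 6 of 18 members, against 1159 of all features. Fosl2 had the highest Th9 effect of the list, 0.75.

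Interferon-stimulated genes fell in naive cells. Of 17 tested members (39 listed) 10 fell in naive cells, against 4.25% of all features, and none rose. The difference was called below 0 for 8, against 2.66% of all features, and above 0 for none. The median effect was -1.12 in naive cells and 0.04 in Th9 cells (-1.26 and -0.08 when arrays were scaled). In Th9 cells limma called 0, with 3 at an unadjusted p under 0.05 and 0 called with separate variances. Isg15, a ubiquitin-like modifier, had 5.83 and 5.89 at 24 h against 9.21 and 9.33 at 0 h, and 5.73, 5.19 and 4.99 in IL7 Th9 against 5.18, 4.67 and 6.00 in Th9 cells. It fell 10.6-fold in naive cells, and its difference was -3.43 ± 0.47 (limma, adjusted p = 0.0024). Usp18, which removes Isg15 from proteins, had 7.43 and 7.12 at 24 h against 10.24 and 10.01 at 0 h, and 8.34, 7.19 and 6.90 in IL7 Th9 against 6.89, 7.24 and 6.77 in Th9 cells. For both, the Th9 groups overlapped and read close to the 24 h arrays. Isg15 was near background on the Th9 chip, with deposited signals of 29.3, 11.1 and 13.8 in IL7 Th9 and 23.9, 6 and 32.6 in Th9 cells. A fall of Isg15 could hardly have been seen there. Bst2, which tethers virus particles, Eif2ak2, a kinase that senses double-stranded RNA, and Irf9, a transcription factor of interferon signalling, met the rule of no trace, with differences of -1.65, -1.46 and -1.34. That of Bst2 was not called with all 12 arrays (adjusted p = 0.14), nor that of Irf9 when arrays were scaled (adjusted p = 0.074). Ifi27l2a and Samd9l fell in naive cells, but their Th9 effects were -0.78 and -0.92, neither of them called, and neither difference was called. The interferon-stimulated members called ranged from 6 to 8 when 1 array was left out (8 without IL7 Th9 replicate 1).

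Gbp2, a GTPase induced by interferon gamma, had 8.79 and 8.76 at 24 h against 10.67 and 10.73 at 0 h, and 9.33, 8.58 and 7.49 in IL7 Th9 against 6.99, 6.26 and 6.91 in Th9 cells. Neither pair of groups overlapped, and the differences of the groups ran in opposite directions. It fell by 1.93 in naive cells. The Th9 effect of 1.75 ± 0.38 was not called (adjusted p = 0.075), and the difference was -3.68 ± 0.59 (limma, adjusted p = 0.0055). The interferon letters GAAANNGAA were present in 7.01% of all promoters, in 12.9% of the 85 naive genes that fell without trace, in 4.35% of the 69 that rose, and in 8 of 13 promoters of the interferon list (61.5%). The windows of Isg15 (chr4:156200839-156200932, - strand), Bst2 (chr8:71537551-71537638, - strand) and Eif2ak2 (chr17:78882523-78882590, - strand) each held overlapping matches.
Isg15: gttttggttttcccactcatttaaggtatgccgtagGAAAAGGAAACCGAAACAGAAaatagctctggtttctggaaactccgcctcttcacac
Bst2: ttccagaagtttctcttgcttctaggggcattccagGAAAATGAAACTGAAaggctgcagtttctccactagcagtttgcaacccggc
Eif2ak2: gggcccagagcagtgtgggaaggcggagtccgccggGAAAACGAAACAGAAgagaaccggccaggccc

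Heat shock proteins, the chaperones that refold damaged proteins, also fell in naive cells. Of 14 tested members 7 fell, against 4.25% of all features, and none rose. Differences were called for 5, all below 0, against 2.66% of all features. The median effects of the list were -0.75 in naive and 0.10 in Th9 cells (-0.90 and -0.04 when arrays were scaled). In Th9 cells limma called 0, also at an unadjusted p under 0.05 and with separate variances. Hsp90aa1, the inducible HSP90, had 8.92 and 8.66 at 24 h against 10.52 and 10.66 at 0 h, and 10.49, 10.21 and 10.44 in IL7 Th9 against 10.07, 10.55 and 10.35 in Th9 cells (difference -1.86 ± 0.24). Hsph1 had 8.97 and 8.67 at 24 h against 11.04 and 11.39 at 0 h, and 9.07, 8.77 and 9.49 in IL7 Th9 against 8.61, 8.88 and 9.13 in Th9 cells (difference -2.63 ± 0.32). Both were called whichever array was left out. Dnajb1, a cochaperone, had a difference of -1.67 ± 0.29 (not called without 0h replicate 1) and Hspa8 one of -0.88 ± 0.18 (not called without any 1 naive array). Chaperonin subunits, which fold actin and tubulin, were not called; Cct8 had effects of -0.06 and 0.07. Between 2 and 6 members were called when 1 array was left out (6 without IL7 Th9 replicate 1). The heat shock letters GAANNTTC, found in 5.59% of all promoters, were in 4 of 12 of this list. The window of Hsph1 (chr5:149636287-149636331, - strand) is shown for 1 of its listed starts.
Hsph1: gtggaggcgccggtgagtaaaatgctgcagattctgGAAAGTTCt

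Histone genes fell in naive cells, and a pair outside the list did so in Th9 cells too. Of 17 tested members of the list 9 fell and 1 rose in naive cells, against 4.25% and 4.03% of all features. Differences were called for 4, all below 0, against 2.66% of all features. The medians were -1.21 and -0.20. In Th9 cells limma called 0 of the list, with 6 at an unadjusted p under 0.05 and 0 called with separate variances. H2ac12, outside the list, had 7.12 and 7.58 at 24 h against 9.19 and 9.46 at 0 h, and 12.83, 13.09 and 13.16 in IL7 Th9 against 12.93, 13.09 and 13.02 in Th9 cells (difference -1.99 ± 0.24, not called with all 12 arrays, adjusted p = 0.17). H3c7 fell in both settings, with effects of -1.84 in naive and -0.72 in Th9 cells, and H3c6 did so with -1.64 and -0.67. Histone genes of one type are near-identical copies, so their probes may share transcripts and the members are not separate measurements. Without IL7 Th9 replicate 1 the number of called members below 0 was 7 and that above 0 was 1.

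Among 17 cytokine receptor chains 4 rose and 1 fell in naive cells, against 4.03% and 4.25% of all features. Differences were called for 3, all above 0, against 2.9% of all features. The median difference of the list was -0.08 (8 above 0 and 9 below). Il10ra, the IL-10 receptor chain, had 7.96 and 7.87 at 24 h against 5.96 and 5.73 at 0 h, and 7.36, 7.55 and 6.54 in IL7 Th9 against 8.07, 7.61 and 7.54 in Th9 cells (difference 2.66 ± 0.38). Ifngr1, the interferon gamma receptor, had a difference of 1.44 ± 0.34, which 3 of 10 fits with an array left out called. Il4ra rose by 1.64 in naive cells, and its difference of 1.35 was not called. Among 9 JAK kinases and STAT factors (median difference -0.65, 1 above 0 and 8 below) none rose and 2 fell in naive cells, against 4.25% of all features that fell. The differences of Jak3 (-1.35 ± 0.28), Stat3 (-1.01 ± 0.20) and Stat5a (-0.80 ± 0.18) were called, against 2.66% of all features called below 0. Stat5a, one of the 2 STAT5 proteins, had 10.31, 10.29 and 10.28 in IL7 Th9 against 9.87, 9.78 and 9.85 in Th9 cells, which did not overlap, but its Th9 effect of 0.46 was not called. The calls of Jak3 and Stat3 were lost without any 1 naive array (that of Jak3 also without Th9 replicate 2), and that of Stat5a without 24h replicate 1, 24h replicate 2, 0h replicate 2 or Th9 replicate 2.

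Of 20 genes of the T cell receptor complex and its signalling 4 fell in naive cells and none rose, and 2 differences were called, both below 0. Over all features 4.03% rose and 4.25% fell in naive cells, and differences were called above 0 for 2.9% and below 0 for 2.66%. Cd6, a costimulatory receptor, had 9.56 and 9.60 at 24 h against 11.16 and 10.80 at 0 h, and 10.98, 10.72 and 10.68 in IL7 Th9 against 10.40, 9.87 and 10.19 in Th9 cells. The groups did not overlap in either setting, the Th9 effect of 0.64 was not called, and the difference was -2.04 ± 0.26. Cd28, the costimulatory receptor, rose in Th9 cells by 0.81 (its difference of -0.77 was not called). Of 18 activation genes 5 rose and 6 fell in naive cells, with 5 differences above 0 and 4 below. Batf, a factor needed for Th9 cells, fell in naive cells by 1.10, with 6.60 and 6.85 at 24 h against 7.74 and 7.92 at 0 h, and had 10.50, 10.44 and 10.50 in IL7 Th9 against 9.88, 9.82 and 9.95 in Th9 cells. Its Th9 effect of 0.60 narrowly missed the threshold (adjusted p = 0.052), and its difference was -1.70 ± 0.18 (limma, adjusted p = 0.00076). Irf4, the other factor of this pair, read 10.87, 11.09 and 11.09 in IL7 Th9 against 10.75, 10.75 and 10.52 in Th9 cells, with an uncalled effect of 0.35 and an uncalled difference of -0.54 ± 0.20. Foxo1, which maintains Il7r in naive cells, had effects of -0.60 and 0.39 and a difference of -0.98 ± 0.27 that was not called. Gata3, Foxp1 and Ep300 had differences of -0.05, 0.07 and 0.05, with adjusted p from 0.91 to 0.93. In naive cells Gata3 read 8.14 and 7.92 at 24 h against 8.59 and 8.66 at 0 h. It read 10.75, 10.94 and 10.94 in IL7 Th9, against 11.62, 11.51 and 11.14 in Th9 cells. Gata3 was thus lower at 24 h and in IL7 Th9 without overlap, but its 2 effects were not both called.

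Over 6 lists of housekeeping functions, 8 of 188 tested genes fell in naive cells (4.26%), a share like the 4.25% of all features. Of 35 ribosome biogenesis genes limma called 0 in each contrast (3, 5 and 3 had an unadjusted p under 0.05 for the naive effect, the Th9 effect and the difference, and separate variances called 3, 0 and 2). Of 18 aminoacyl-tRNA synthetases it called 0, also at an unadjusted p under 0.05 and with separate variances. Among 47 cytosolic ribosomal proteins 2 fell in naive cells, with 0 differences called by limma, 4 at an unadjusted p under 0.05 and 2 called with separate variances. Of 39 respiratory chain genes 2 fell in naive cells, of 33 proteasome subunits 3 fell, and of 16 glycolysis genes 1 fell. The medians of these 6 lists lay between -0.11 and -0.01 in naive cells and between -0.13 and 0.11 in Th9 cells; with arrays scaled, all 6 were below 0 in both settings. Ldha, lactate dehydrogenase A, fell in naive cells with 11.08 and 11.27 at 24 h against 11.78 and 11.92 at 0 h, while it had 14.06, 14.01 and 14.01 in IL7 Th9 against 14.02, 13.92 and 14.06 in Th9 cells; its difference of -0.70 ± 0.18 was lost in every fit that left out an array. Among 24 DNA replication genes 1 difference was called (below 0), against 2.66% of all features. Among 12 mitosis genes 1 was called (above 0, Cenpa, 0.96 ± 0.19), against 2.9% of all features. The difference of Cenpa was not called without any 1 naive array.

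**Figure D4:**
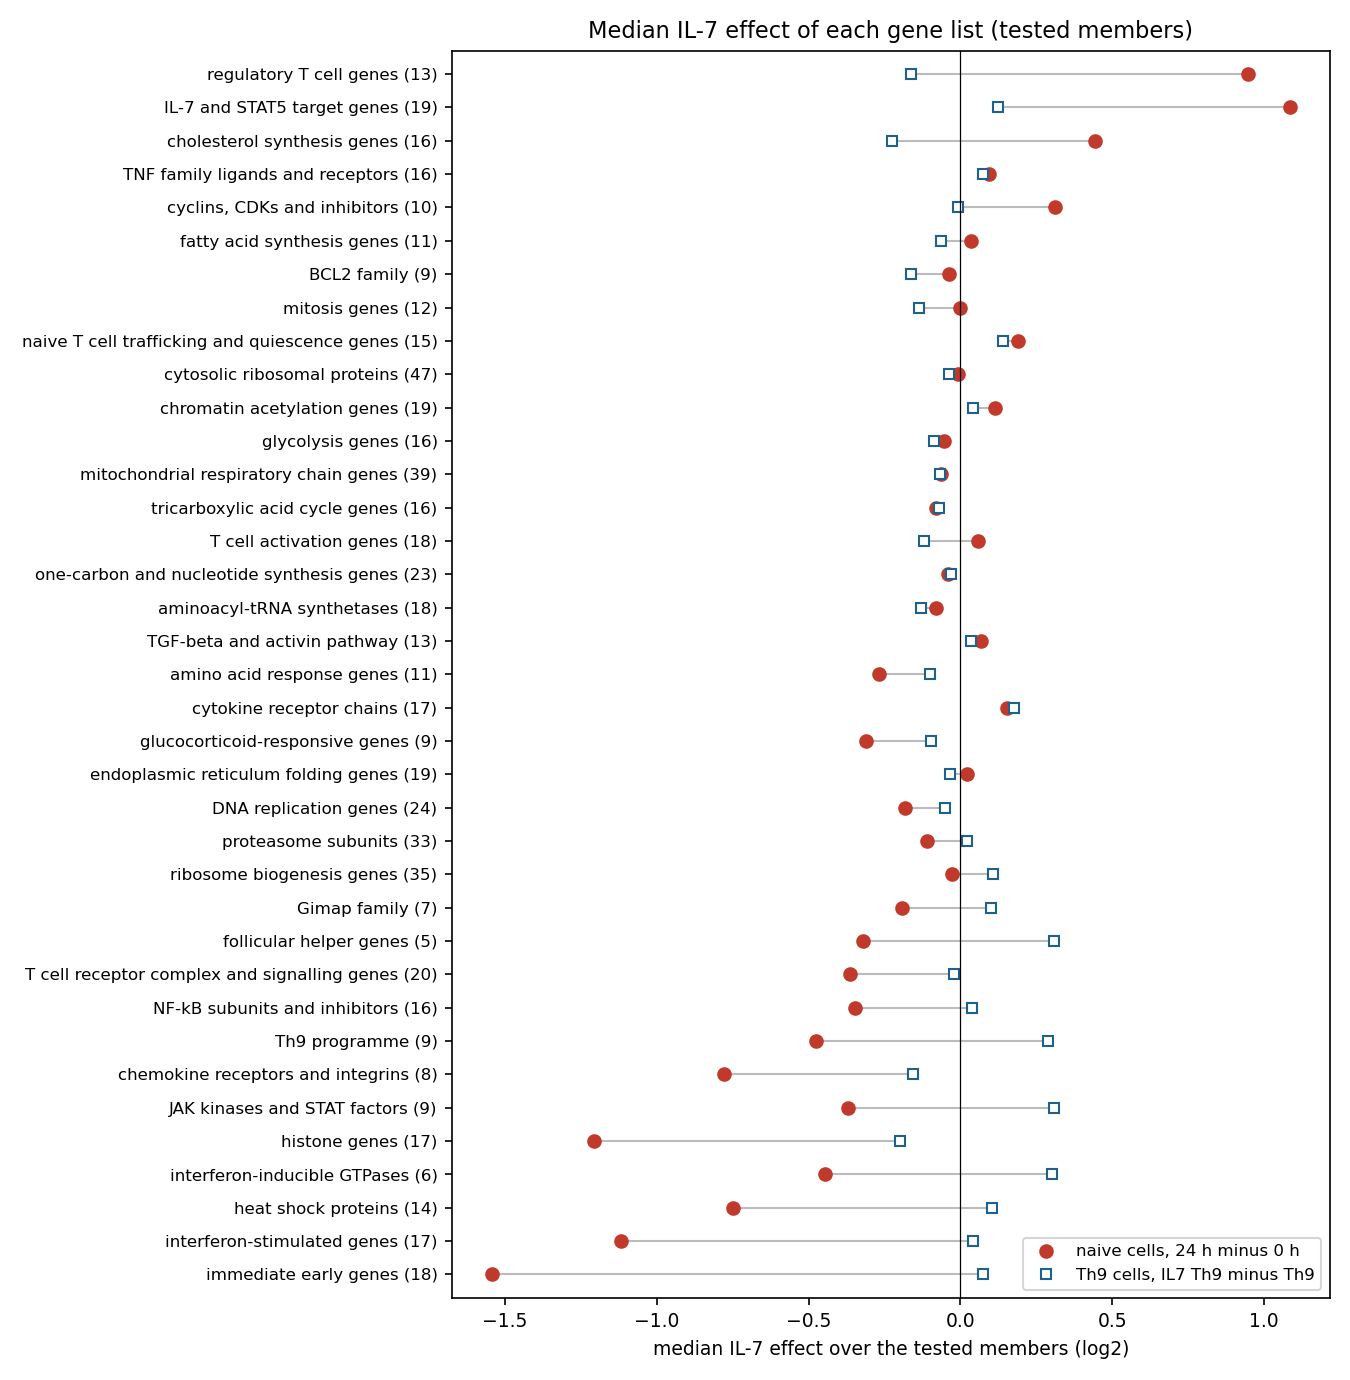
Median IL-7 effect (log2) of each of 37 gene lists with 5 or more tested members (number in brackets) in naive cells (filled circles) and Th9 cells (open squares), ordered by the median difference. Naive medians range from -1.54 for immediate early genes to 1.08 for STAT5 targets, and the Th9 medians stay between -0.23 and 0.31.

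The reverse pattern, a Th9 response without a naive one, was small. Maml2, a coactivator of Notch signalling, had 10.08 and 10.11 at 24 h against 10.07 and 9.86 at 0 h, and 8.91, 8.84 and 9.08 in IL7 Th9 against 7.76, 7.76 and 7.59 in Th9 cells. It rose 2.36-fold in Th9 cells (adjusted p = 0.0015), and the difference was -1.11 ± 0.19 (limma, adjusted p = 0.0071). Satb1, a chromatin organiser of T cells, had 12.77 and 13.04 at 24 h against 13.06 and 13 at 0 h, and 12.95, 12.95 and 12.64 in IL7 Th9 against 12.05, 12.02 and 11.74 in Th9 cells. Tnip2, an inhibitor of NF-kB, had 5.33 and 5.44 at 24 h against 5.51 and 5.50 at 0 h, and 8.08, 7.98 and 7.75 in IL7 Th9 against 7.14, 6.88 and 6.91 in Th9 cells. For Maml2 and Satb1 the IL7 Th9 arrays read nearer to the naive arrays than the Th9 arrays did, and for Tnip2 they read farther away. Their Th9 effects were 1.24, 0.91 and 0.96.

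Adcy3, an adenylyl cyclase, was the fourth named gene of this kind; it was not detected in Th9 cells, so its Th9 change is at least 1.08-fold. Fgf13, a fibroblast growth factor homologue that stays inside the cell, fell in Th9 cells, with 7.63 and 7.63 at 24 h against 7.51 and 7.49 at 0 h, and 6.05, 6.48 and 6.76 in IL7 Th9 against 7.44, 7.47 and 7.46 in Th9 cells. Dnajc10, a disulfide reductase of the endoplasmic reticulum, had 8.42 and 8.49 at 24 h against 8.45 and 8.24 at 0 h, and 9.56, 9.58 and 9.52 in IL7 Th9 against 10.13, 10.19 and 10.08 in Th9 cells. These calls were fragile. The difference of Maml2 was not called without 0h replicate 1, those of Tnip2, Satb1 and Fgf13 without any 1 naive array (Fgf13 also without Th9 replicate 2), that of Dnajc10 in any fit that left out an array, and that of Adcy3 was called in only 1 of 8 fits with an array left out. Without IL7 Th9 replicate 1 the features of a Th9 response without trace numbered 8, of which 6 were among the 9; without 24h replicate 1 it was 1, which was not among the 9. Ly6c1, a surface glycoprotein of T cell subsets, rose in Th9 cells by at least 1.68-fold (adjusted p = 0.043), with 6.58, 6.00 and 5.16 in IL7 Th9 against 4.44, 4.34 and 4.38 in Th9 cells, where it was not detected. In naive cells it had 11.14 and 11.39 at 24 h against 12.40 and 12.42 at 0 h, an effect that was not called.

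Among the genes with a symbol, 3 were called in opposite directions. Abi3, an adaptor that binds actin regulators, fell in naive cells, with 8.80 and 8.87 at 24 h against 9.85 and 9.87 at 0 h, and rose in Th9 cells, with 8.31, 8.0 and 8.56 in IL7 Th9 against 7.20, 7.53 and 7.26 in Th9 cells (difference -1.98 ± 0.24, limma, adjusted p = 0.0014). Nav1, a protein of growing axons, had 5.36 and 5.52 at 24 h against 4.54 and 4.43 at 0 h, where it was not detected, and 4.26, 4.55 and 4.78 in IL7 Th9, where it was not detected, against 5.82, 5.77 and 5.38 in Th9 cells. Its changes were at least 1.43-fold upward and at least 1.32-fold downward. Tmco6 had 7.51 and 7.41 at 24 h against 6.84 and 6.99 at 0 h, and 7.12, 7.28 and 7.25 in IL7 Th9 against 7.85, 7.93 and 7.81 in Th9 cells (difference 1.19 ± 0.17, adjusted p = 0.003). All 3 differences were called whenever 1 array was left out, in the fits that tested the probe; that of Tmco6 was not called when arrays were scaled, nor that of Nav1 with all 12 arrays. The count of 4 features called in opposite directions was 0 without any 1 naive array, without Th9 replicate 2, with the replicate block or with all 12 arrays.

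**Figure D5:**
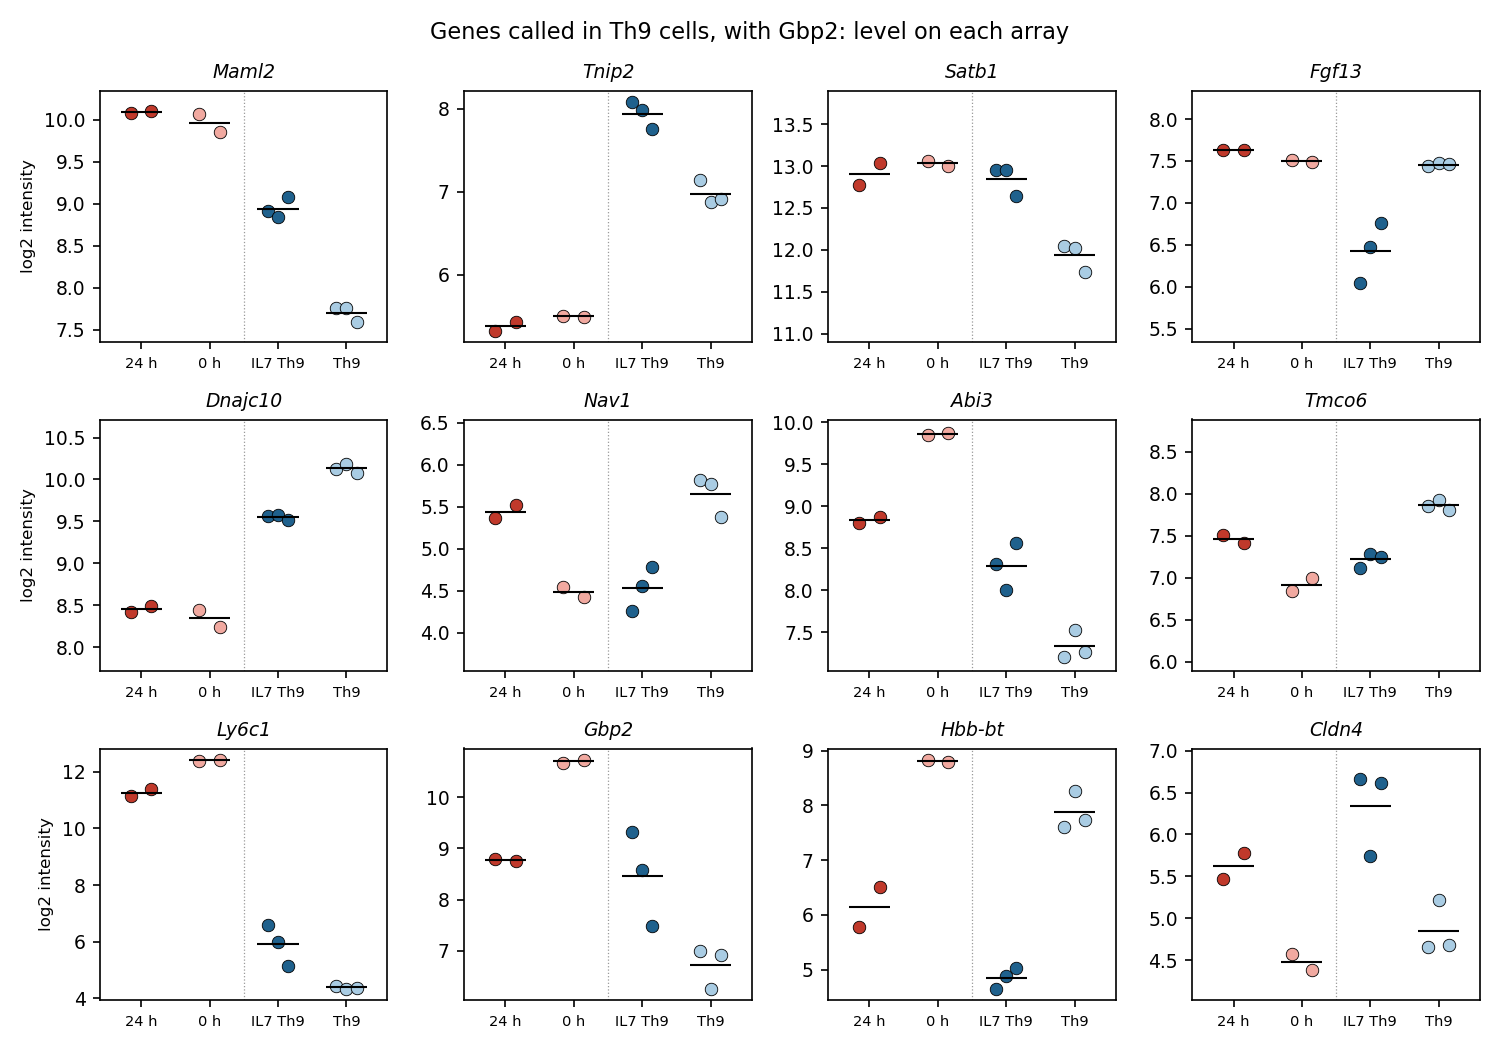
Log2 intensity on each array (points) with group means (bars) for 11 genes called in the Th9 contrast and for Gbp2; each panel has its own vertical scale and the dotted line separates the naive from the Th9 chip. Maml2 reads 8.91, 8.84 and 9.08 in IL7 Th9 against 7.76, 7.76 and 7.59 in Th9 cells. The 2 Th9 groups are apart in every panel, which the choice of 11 of these genes by their Th9 call made likely.

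Responses in the same direction in both settings included 2 beta globins. Hbb-bt, a beta globin of red cells, had 5.78 and 6.50 at 24 h against 8.83 and 8.80 at 0 h, and 4.65, 4.88 and 5.03 in IL7 Th9, where it was not detected, against 7.61, 8.26 and 7.74 in Th9 cells; the change in Th9 cells was at least 6.12-fold. Hbb-bs fell by 2.61 in naive cells and fell by 3.26 in Th9 cells. Summed red cell and platelet marker signal was 54.3 to 58.1 at 24 h against 368.1 to 530.4 at 0 h, and 7.2 to 22.3 in IL7 Th9 against 3.3 to 18.4 in Th9 cells, with Alas2, Epb42, Hbb-b2 and Pf4 not detected. Hba-a1, an alpha globin, had signals of 44.6 to 52.6 at 24 h against 349.1 to 473.9 at 0 h, and was detected in neither IL7 Th9 (3.3 to 7) nor Th9 cells (-7.6 to 5.9). Hbb-bs read 3.1 to 26.6 in IL7 Th9 against 220.6 to 346.4 in Th9 cells, and the part of red cell RNA in these results was not tested. Another probe of each globin gave a difference of the other sign, and the 2 genes are near-identical. Tox, a chromatin factor of T cell exhaustion, had effects of -0.92 in naive and -1.46 in Th9 cells, both called (6.01, 5.95 and 6.65 in IL7 Th9 against 7.36, 7.91 and 7.71 in Th9 cells). Cd160, a receptor of cytotoxic lymphocytes, fell by 2.56 in naive cells and fell by 0.90 in Th9 cells, and the difference of -1.66 ± 0.27 was called. The part of CD8 T cell and natural killer cell RNA, whose marker sums are given above, was not tested. Cldn4, a tight junction protein, rose in both, and Stk39, a kinase of ion transport, fell in both (-0.70 in naive and -0.93 in Th9 cells). The differences of Hbb-bt, Tox, Cldn4 and Stk39 were not called, with adjusted p from 0.40 to 0.71.

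The Th9 level of the features with a naive response without trace was not uniform. Over the 116 that rose, the mean of the Th9 arrays was above both naive groups for 48 (41.4%), between them for 23 (19.8%) and below both for 45 (38.8%). Over the 110 that fell the counts were 43, 32 and 35. Among all features the shares were 43.8% above, 9.46% between and 46.7% below. The Th9 mean was nearer to the 24 h than to the 0 h level for 50.9% of those that rose, 42.7% of those that fell and 49.5% of all features. These levels cross 2 chips and are a description.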

How the data were processed

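Mouse BeadChips measured RNA in 12 samples, and 10 arrays were used. The deposited intensity and detection p-value of each probe came from GenomeStudio, per the submitters' processing notes; no array normalization is stated. Values were background-corrected and quantile-normalized together with neqc (limma 3.58.1, R 4.3.3, offset 16) and are given as log2 intensity computed from the deposited signals. A second deposited table of scaled values was not used, because same-named probes did not correlate with the intensities (Spearman -0.008 to 0.002). Probes with a detection p under 0.01 on at least 2 arrays of each experiment were kept, with the probe of highest mean for each symbol (9011 features). limma's lmFit and eBayes gave the naive effect, the Th9 effect and their difference, adjusted by Benjamini-Hochberg over all features. A group with no detected array gives a bound, set by the lowest signal among detected probes. Deviations of same-numbered replicates from their group means correlated at 0.167 in naive and at -0.096, -0.12 and 0.262 in Th9 cells. Those of differently numbered IL7 Th9 and Th9 arrays correlated at -0.317 to 0.393. The main fit did not pair the arrays. Array number limits the precision. Named genes were the largest differences in each class and over all features, list members with called differences, and a few fixed genes. The comparison, the rule and the gene lists were chosen with earlier results of these data known. Alternatives covered normalization, offset, filter, probes, variance, array weights, block, margin and each array left out.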

Additional observations from a re-analysis of the deposited data

Results flagged for a closer look

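The test of the difference itself placed 261 features above 0 and 240 below 0. Among genes called in opposite directions, the differences were -1.98 for Abi3, 1.19 for Tmco6 and 2.08 for Nav1 (log2).

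The 6 h arrays were outside the comparison. Of the 116 features that rose in naive cells without trace, both 6 h arrays read above both 0 h arrays for 105 (90.5%), against 88.2% of all features called above 0 in naive cells and 27% of all features. Of the 110 that fell, both read below both 0 h arrays for 80 (72.7%), against 74.9% of all features called below 0 in naive cells and 32.5% of all features. The 0 h arrays that define these classes enter both counts, so the shares are a description. The 6 h replicates differed, with Cd69 at 11.95 and 10.43 and Dusp1 at 12.55 and 9.61 (log2, replicates 1 and 2).

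Xist gave a signal of 792.4 on IL7 Th9 replicate 1, with no detected Eif2s3y. On the 6 h replicate 1 array the same probe gave 692.4, together with an Eif2s3y signal of 358.3.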

How the results depend on the processing

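The scaling shifted the median of all features by -0.13 (naive) and -0.149 (Th9). Of 2227 values of named genes under the alternatives, 1919 kept their side of the threshold, 304 were no longer called and 4 became called. Of the called differences 0 changed sign, and 12 values of 5 uncalled ones (Gata3, Foxp1, Ep300, Cldn4 and Hbb-bt) did. With neqc run separately, opposite responses numbered 8 and shared ones 20. With arrays scaled, differences above 0 were 135 and below 0 126, naive effects 424, naive responses without trace 8 (rose) and 14 (fell), and Th9 responses 0 and 0. With offset 50 there were 106 Th9 effects, 215 and 179 naive responses, 11 Th9 responses that fell, 11 opposite and 25 shared. Without the detection filter 180 naive responses fell, and Th9 responses were 11 (rose) and 16 (fell). With the stricter filter Th9 effects were 86, Th9 responses that fell 8 and opposite 7, and with every probe tested opposite were 7. Separate variances gave 560 and 516 differences, 2191 naive and 5 Th9 effects, 200 and 190 naive responses, 1 and 0 Th9 responses, 1 opposite and 3 shared. Array weights gave 451 and 401 differences, 2065 naive effects and 10 Th9 responses that fell. All 12 arrays gave 132 differences below 0, 74 and 43 naive responses, 0 opposite and 4 shared. The replicate block gave 13 Th9 effects, 3 and 0 Th9 responses, 0 opposite and 6 shared, and 453 differences, 379 of them among the 501. Whether the replicate numbers pair the arrays is not stated. Asking for a difference of at least 1 left 66 and 68 naive responses, 3 and 1 Th9 responses and 4 shared. A margin of 1.2-fold left 0 and 4 naive and 0 and 0 Th9 responses, and one of 2-fold gave 192 and 178 naive responses and 11 Th9 responses that fell. The causes were not tested. Leaving out each array in turn gave 90 to 295 differences above 0, 99 to 272 below 0, 275 to 831 naive effects, 6 to 111 Th9 effects, 34 to 103 naive responses that rose, 45 to 107 that fell, 0 to 12 Th9 responses that rose, 0 to 7 that fell, 0 to 12 opposite and 2 to 21 shared. With 2 naive arrays a group, a fit without 1 assumes that the lone array varies like the other groups. Few probes were detected, and levels near background are bounds.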
